A study of Mus musculus with 70 samples.

Results

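The 34 genes described here take glucose into the cell, break it down by glycolysis, pass pyruvate to lactate or to the mitochondrion, and branch off into the pentose phosphate pathway. They were named by symbol as genes of the pathway, and all 34 were found by Entrez identifier among the 27179 genes of both count tables. The series profiled progenitors of innate lymphoid cells (ILC), lymphocytes that carry no rearranged antigen receptor, sorted from mouse bone marrow in pools of 100 cells. The CEL-seq protocol amplifies messenger RNA linearly and reads a tag near its 3′ end, so that a gene gives about the same number of tags per transcript whatever its length. After 4 technical repeats were summed with the library they repeat, 47 libraries of the 70 samples entered the comparisons.

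Wild-type libraries came from 5 populations: CLP, the common lymphoid progenitor (8 libraries), CLP expressing the integrin α4β7 (α4β7+ CLP, 5), CILP, the common innate lymphoid progenitor (7), a population labelled ILCP (3), and ILC2P, the progenitor of group 2 innate lymphoid cells (8). No sort gate is named for ILCP in the labels. Mice labelled TCF7-/- (here Tcf7 knockout), which lack the transcription factor TCF-1, gave 5 CLP, 4 CILP and 2 ILC2P libraries. Mice labelled Id2-/- (here Id2 knockout), which lack an inhibitor of E proteins, gave 2 CLP, 2 CILP and 1 ILCP library. No group received a treatment, and the labels give no age, sex or allele and do not say whether libraries of a group came from separate mice, so p-values measure the spread between libraries. Libraries were made in 2 batches, 22 in batch 1 and 25 in batch 2. All Id2 knockout libraries were in batch 1 and both Tcf7 knockout ILC2P libraries in batch 2.

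In glycolysis, hexokinase traps glucose as glucose 6-phosphate, a chain of enzymes splits the sugar and ends with pyruvate kinase, and lactate dehydrogenase turns pyruvate into lactate. Pyruvate dehydrogenase instead sends pyruvate into the mitochondrion and is switched off by the PDK kinases. The pentose phosphate pathway uses the same glucose 6-phosphate to make NADPH and ribose for nucleotides. Lymphoid cells raise glucose uptake and glycolysis when they proliferate, and the transcription factors HIF-1 and MYC are known drivers of many of these genes.

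Totals per library ran from 19322 to 624668 counts with a median of 134985. Wild-type ILC2P libraries were shallow, with 19322 to 80873 counts against 42266 to 624668 in wild-type CILP and 81976 to 246119 in wild-type CLP. CLP markers made up 0.930 to 1.83% of counts in wild-type CLP and 0.146 to 0.305% in CILP, and ILC2 markers made up 0.340 to 0.667% in ILC2P and 0.0526 to 0.308% in CILP. Tcf7 stood at 165 to 777 scaled counts (CPM) in wild-type CILP and at 0 to 62.6 in Tcf7 knockout CILP, whereas in ILC2P it was low in both genotypes. Id2 stood at 79.4 to 2265 CPM in wild-type CILP and at 26.8 and 114 in Id2 knockout CILP. Several libraries stood apart by markers of other cells. In Tcf7 knockout ILC2P replicate 1, 32.1% of counts came from markers of plasma and mature B cells. Erythroid markers made up 10.4% of counts in Tcf7 knockout CILP replicate 4, 2.11% in replicate 1 of that group, 4.06% in the Id2 knockout ILCP library and 2.24% in wild-type ILCP replicate 1. Replicate numbers only name libraries.

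The 4 members that edgeR's test called lower in wild-type ILC2P than in CILP (Hk2, Tpi1, Pkm and Pdk1, the last resting on 1 CILP library) are shown first by the 250 bases before their transcription start, with Ldha, which encodes lactate dehydrogenase A and was not called, for comparison. The sequences are those of RefSeq on build GRCm38.p6, written on the strand of the gene from 5′ to 3′. Capitals mark each match, on either strand, to ACGTG and to CACGTG, the E-box bound by MYC. ACGTG is a form of the core of the HIF binding motif, and a match on the opposite strand reads CACGT. The other form, GCGTG, was not searched for. Any match to CACGTG also holds the HIF core on both strands.
Hk2, chr6:82774455-82774704, minus strand: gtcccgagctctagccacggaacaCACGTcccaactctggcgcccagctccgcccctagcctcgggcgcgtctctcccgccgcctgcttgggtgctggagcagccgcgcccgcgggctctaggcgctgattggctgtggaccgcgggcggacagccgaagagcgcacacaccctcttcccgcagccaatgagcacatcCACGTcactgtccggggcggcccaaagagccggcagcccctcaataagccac
Tpi1, chr6:124814159-124814408, minus strand: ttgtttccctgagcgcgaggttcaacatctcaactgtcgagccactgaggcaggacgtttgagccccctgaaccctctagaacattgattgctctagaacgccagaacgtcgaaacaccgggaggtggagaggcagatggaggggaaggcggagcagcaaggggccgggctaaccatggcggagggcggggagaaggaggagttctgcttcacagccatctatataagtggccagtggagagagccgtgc
Pkm, chr9:59656326-59656575, plus strand: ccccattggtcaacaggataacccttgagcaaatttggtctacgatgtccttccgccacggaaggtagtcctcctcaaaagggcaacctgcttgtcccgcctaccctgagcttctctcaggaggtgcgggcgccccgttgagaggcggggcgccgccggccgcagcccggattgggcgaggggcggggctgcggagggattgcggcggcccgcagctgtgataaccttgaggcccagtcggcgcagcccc
Pdk1, chr2:71872974-71873223, plus strand: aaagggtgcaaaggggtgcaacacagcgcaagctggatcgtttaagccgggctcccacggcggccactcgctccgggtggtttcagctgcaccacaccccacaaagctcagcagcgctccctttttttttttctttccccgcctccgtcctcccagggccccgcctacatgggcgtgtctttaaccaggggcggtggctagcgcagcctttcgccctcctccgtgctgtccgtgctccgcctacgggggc
Ldha, chr7:46845554-46845803, plus strand: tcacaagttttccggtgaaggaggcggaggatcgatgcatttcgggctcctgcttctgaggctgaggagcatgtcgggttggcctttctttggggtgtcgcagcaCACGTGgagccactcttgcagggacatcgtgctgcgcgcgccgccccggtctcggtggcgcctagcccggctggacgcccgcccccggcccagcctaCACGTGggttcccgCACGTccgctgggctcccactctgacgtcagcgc
Hk2 holds 2 matches to ACGTG, both on the opposite strand, at 226 and 52 bases before the start. Tpi1, Pkm and Pdk1 hold neither ACGTG nor CACGTG in this window, which says only that these letters are not there. The Pdk1 window does hold GCGTG, the form of the HIF core that was not searched for. Ldha holds 2 copies of CACGTG and 1 further ACGTG core on the opposite strand. The starts used by RefSeq for the Ldha and Pdk1 windows lie inside the annotated spans of these genes. Over windows of 300 bases (250 before and 50 after the start), 33 of the 34 members had an entry and 16 of them (48.5%) held ACGTG, against 19.6% of all 27025 windows and 26.2% of the 8482 windows of tested genes. CACGTG was in 5 of the 33 (15.2%), against 7.2% of all windows and 10.5% of those of tested genes. The median GC content was 61.0% for the members, 60.7% for tested genes and 52.7% for all windows. These counts describe the letters and no binding was measured.

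Together the members took up a small share of each library. They held 19137 counts over the 47 libraries, 0.25% of all counts, and from 0.0311% to 0.762% of a single library. Of these counts, 75.4% came from the 10 members with the highest mean over the 31 wild-type libraries, which were Pkm, Ldha, Tkt, Pdk1, Aldoa, Taldo1, Hif1a, Pdha1, Tpi1 and Pgd. The filter on low counts kept 29 of the 34 members. The 5 that it removed were Slc2a1, Gapdh, Eno2, Ldhb and Pdk2, and none of them is counted in the tests below. The means per group show Pkm, Ldha and Tkt as the highest rows in most groups.

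**Figure D1:**
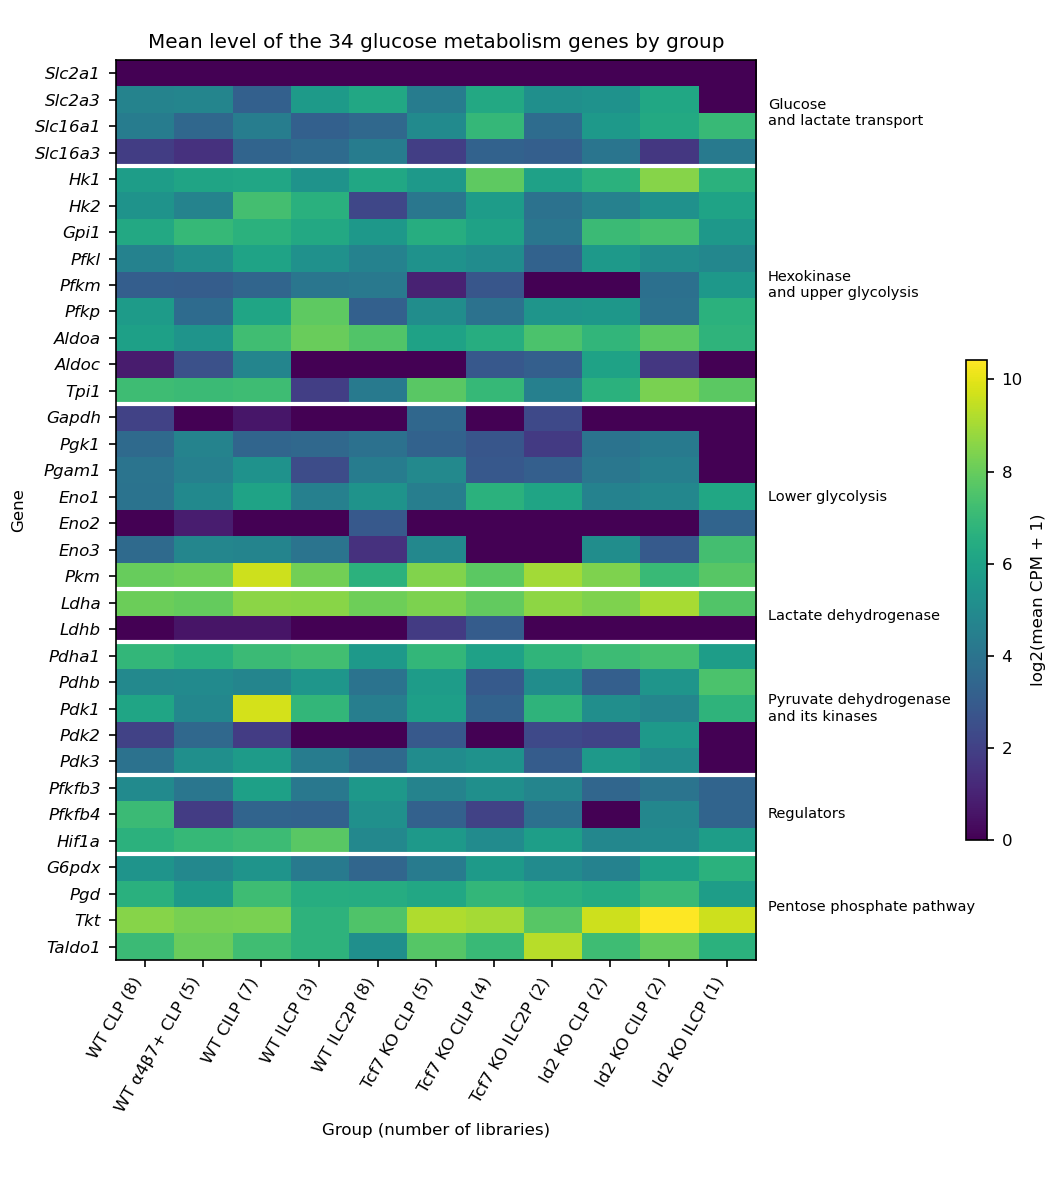
Mean level of each of the 34 genes in each of the 11 groups, as log2(mean CPM + 1) by colour, with genes ordered by their role in the pathway and groups by genotype and population. Pkm, Ldha and Tkt are high in most columns, Slc2a1 is at 0 in every column, and Hk2 is lower in wild-type ILC2P than in any other column.

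Slc2a1 and Gapdh had almost no counts. Slc2a1, which encodes the glucose transporter GLUT1, had 0 counts in all 47 libraries, 0 of 7649215 counts. For counted tags this allows at most 0.392 CPM over the pooled libraries. The annotation of 3′ ends used for counting is not stated, and whether tags of Slc2a1 could be counted was not tested. Gapdh, the dehydrogenase of the middle of glycolysis, had 10 counts in 4 libraries. Of the 35-base windows in the last 500 bases of its transcript, 94.0% also occur in other genes, 213 in all and 203 of them annotated as pseudogenes. How the counting treated reads that fit several genes is not stated, and the part of such reads in the low Gapdh count was not tested. Eno1 (enolase 1) shares 82.4% of such windows with other genes and Pfkp (platelet phosphofructokinase) shares 100% with Pitrm1, whose tail overlaps it, so the counts of these members are uncertain. Slc2a1, Pkm, Ldha, Tkt and Pdk1 share none, and Hk2, Tpi1 and Taldo1 share at most 2.1%.

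Among wild-type populations the members' share of counts was highest on average in CILP. It was 0.220 ± 0.0819% (SD, n = 8) in CLP, 0.199 ± 0.0701% (n = 5) in α4β7+ CLP, 0.393 ± 0.180% (n = 7) in CILP, 0.234 ± 0.0655% (n = 3) in ILCP and 0.174 ± 0.0832% (n = 8) in ILC2P. The CILP libraries overlapped with CLP, and the highest of them, replicate 3 with 0.762%, held most of it as Pdk1 counts. Batch moved the share: in CLP it averaged 0.304% in batch 1 and 0.170% in batch 2, in α4β7+ CLP 0.270% and 0.151%, in ILC2P 0.243% and 0.133%, and in CILP 0.370% and 0.411%. In both batches the mean was higher in CILP than in the other 3 populations with several libraries per batch. In pools of 100 cells, fewer cells of a type and less RNA per cell cannot be told apart. The shares by library are a description with no test.

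**Figure D2:**
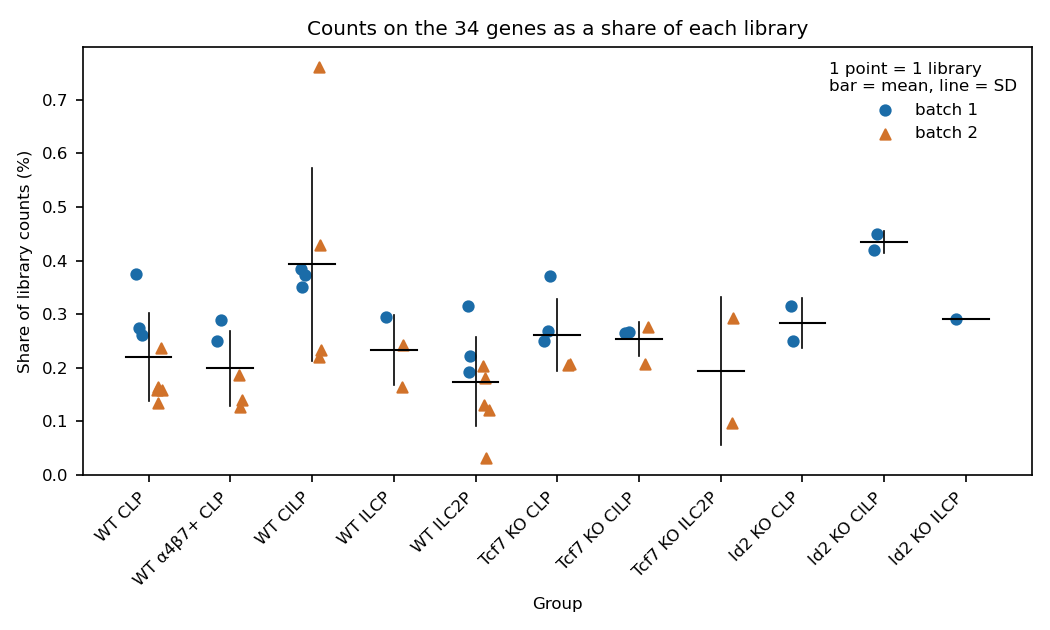
Share of each library's counts that falls on the 34 genes, in percent, for the 11 groups. Each point is a library with its batch shown by the marker, and bars give the mean ± SD of the group. Wild-type CILP has the widest spread, with replicate 3 at 0.762%.

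Between wild-type populations, calls among the members were few, and most were lower values in ILC2P. A member is called where edgeR's quasi-likelihood test, adjusted by Benjamini and Hochberg over the 10972 genes tested, gave an adjusted p under 0.05. In CILP against CLP, Pkm alone was called, higher in CILP (1 of 29 members, where 4.31% of all tested genes were called). The median log2 fold change was 0.45 over the 29 members and 0.07 over all genes. Of the 29, 21 were positive, as were 52.6% of all genes. In ILC2P against CILP, 4 of 29 members were called and all were lower in ILC2P, where 5.29% of all genes were called. They were Pkm, Hk2, Pdk1 and Tpi1. The Pdk1 call was lost without CILP replicate 3 (adjusted p = 0.661, edgeR), which alone held 741 Pdk1 counts. The median was -1.01 over the members and -0.56 over all genes. Of the 29, 22 were negative, where only 33.5% of all genes were positive. In ILC2P against CLP, Tpi1 and Taldo1 were called lower (2 of 29, against 11.5% of all genes), with medians of -0.90 and -0.43. The share of members called was thus below that of all genes in CILP against CLP and in ILC2P against CLP, and above it in ILC2P against CILP, with no test of these differences.

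The scaling of the shallow ILC2P libraries moved these levels. With DESeq2's size factors in place of edgeR's TMM factors, the median of all genes in ILC2P against CILP was -0.23 and that of the members -0.76, and genes called higher were 40.9% of all calls in place of 20.2%. With plain library totals the medians were -0.29 and -0.75 and the share 36.7%. In ILC2P against CLP the share of higher calls was 30.2% with TMM, 44.7% with DESeq2's size factors and 44.2% with totals, and the members' median moved from -0.90 to -0.67 and -0.66. The members' median stayed below that of all genes in each of these settings.

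No member was called in the other 3 wild-type comparisons. In α4β7+ CLP against CLP the members' median log2 fold change was -0.07 and no member had an unadjusted p under 0.05 (0.0456% of all genes were called); DESeq2 and limma-voom also called none. In CILP against α4β7+ CLP (2.35% of all genes called) 0 members were called by edgeR and 5 had an unadjusted p under 0.05, while DESeq2 called 2 (Aldoa and Pkm) and limma-voom 2 (Aldoa and Hk2). In ILCP against CILP (0.374% of all genes called) 0 were called by edgeR and 4 had an unadjusted p under 0.05, while DESeq2 and limma-voom each called Tpi1. These comparisons share libraries: CILP enters 4 of the 6 wild-type comparisons, so their values are not independent.

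**Figure D3:**
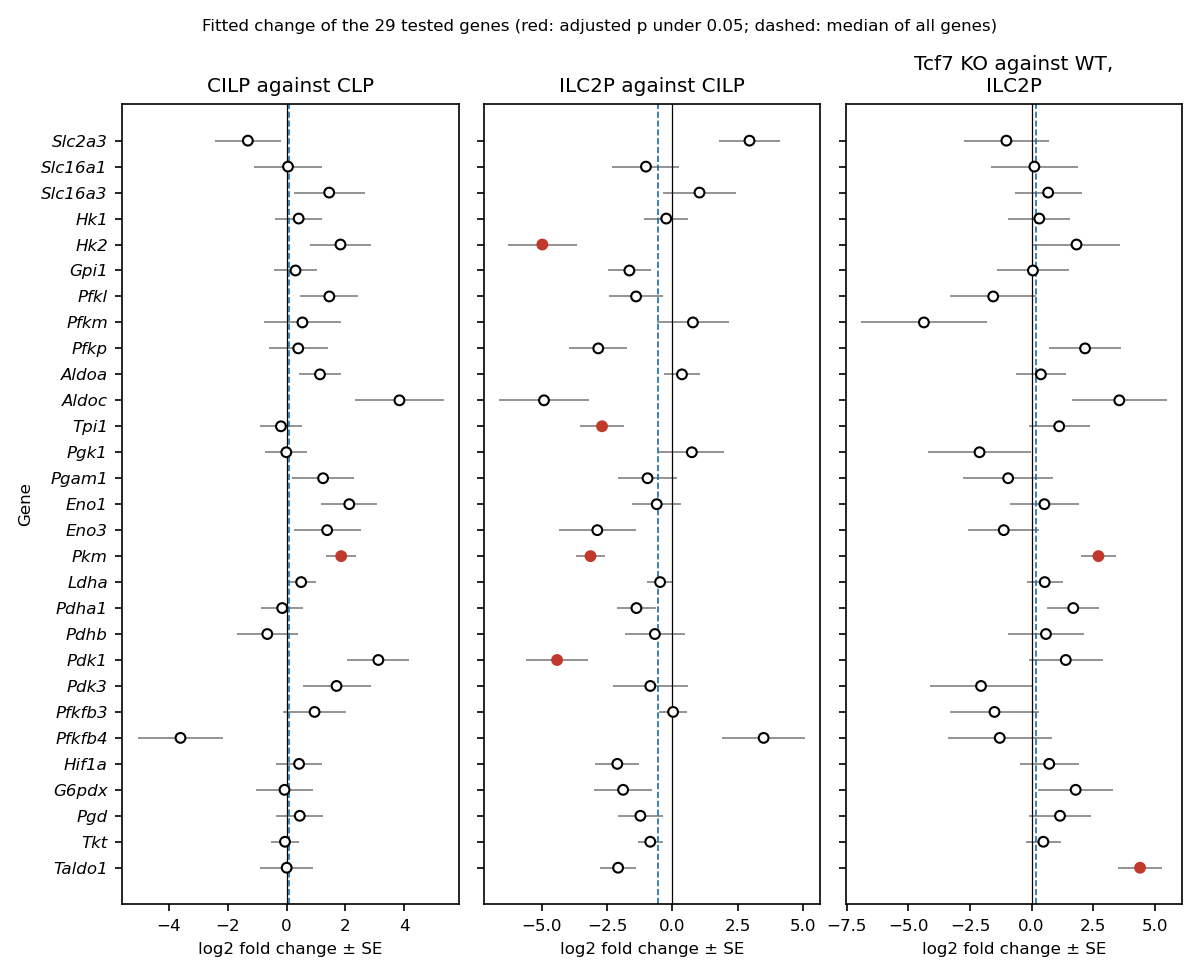
Log2 fold change ± SE of the 29 tested members in CILP against CLP, ILC2P against CILP and Tcf7 knockout against wild-type ILC2P, with called members in red and a dashed line at the median of all genes. In the second panel most points lie to the left of 0 and 4 are called, and in the third Taldo1 and Pkm are called to the right.

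Counts of transport genes were low. Slc2a3, which encodes the glucose transporter GLUT3, ranged over 0 to 136 CPM in CLP, 0 to 23.5 in CILP and 0 to 313 in ILC2P. Its median was 48.1 CPM in ILC2P and 0 in CILP, the reverse of most members, and the log2 fold change between them was 2.95 ± 1.18 (SE), with an adjusted p of 0.116 in edgeR's test, while limma-voom called it higher in ILC2P (2.54, adjusted p = 0.0428). Slc16a1 and Slc16a3 encode the lactate carriers MCT1 and MCT4. Slc16a1 reached at most 82.3 CPM in wild-type libraries and Slc16a3 at most 110.3, and neither was called between populations by edgeR. With limma-voom Slc16a3 was called higher in ILC2P than in CLP (1.87, adjusted p = 0.0315).

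Hk2, the inducible hexokinase bound to mitochondria, was present in every CILP library and had 2 counts in all of ILC2P. It stood at 62.7 to 282 (median 128) CPM in the 7 CILP libraries and at 0 in 7 of the 8 ILC2P libraries, with 29.2 CPM (2 counts) in the other. The groups did not overlap. The log2 fold change was -4.98 ± 1.32 (SE) with an adjusted p of 0.0153 in edgeR's test. Pooled, 191 counts in CILP faced 2 in ILC2P, a ratio of 37.5 with a 95% interval of 10.3 to 312 that covers counting error only. In the shallow ILC2P libraries 3 counts are worth 37.1 to 155 CPM. In CLP Hk2 ranged over 0 to 209.7 (median 9.67), in the 5 α4β7+ CLP libraries it stood at 0, 0, 25.8, 36.9 and 57.6, and in the 3 ILCP libraries at 0, 41.5 and 253. All 7 CILP libraries thus lay above all 5 α4β7+ CLP libraries, a difference of 2.69 ± 1.22 on the log2 scale that did not pass (adjusted p = 0.27, edgeR). With limma-voom Hk2 was called higher in CILP than in α4β7+ CLP (adjusted p = 0.0245) and CLP (adjusted p = 0.00264). The call in ILC2P against CILP held when any 1 library was left out, and in batch 1 alone, but not in batch 2 alone (log2 fold change -3.79, adjusted p = 0.212, edgeR). Hk1, the constitutive hexokinase, was not called between these populations, with medians of 51.4 CPM in CILP and 21.3 in ILC2P.

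Tpi1, triose phosphate isomerase, which interconverts the 3-carbon sugars, was low in both ILCP and ILC2P. It ranged over 0 to 265 (median 163) CPM in CLP and 20.4 to 289.9 (median 125) in CILP, while 5 of the 8 ILC2P libraries were at 0 and the others reached 61.3. The 5 α4β7+ CLP libraries stood at 33.5, 48.6, 59.3, 184 and 361 and the 3 ILCP libraries at 0, 0 and 8.31. The ranges of CILP and ILC2P overlapped, while all 3 ILCP libraries lay below all 7 CILP libraries. Tpi1 was lower in ILC2P than in CLP, with a log2 fold change of -2.89 ± 0.84 (adjusted p = 0.0151, edgeR), and lower than in CILP, with -2.69 ± 0.85 (adjusted p = 0.0426). The second call was lost in 10 of 15 refits that left out 1 library each, with adjusted p from 0.0171 to 0.0837, and with DESeq2's size factors (adjusted p = 0.0736, edgeR). The first was lost without wild-type CLP replicate 5 (adjusted p = 0.0607, edgeR) and in batch 2 alone. In ILCP against CILP the log2 fold change was -5.35 ± 1.49 with an adjusted p of 0.0763 (edgeR), from 1 count against 153.

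Aldoa, the main aldolase, was the upper glycolytic gene with the highest mean. It stood at 18.2 to 121 (median 61.3) CPM in CLP, 78.4 to 318 (median 129) in CILP and 0 to 527 (median 138) in ILC2P. In α4β7+ CLP the 5 libraries stood at 0, 16.2, 18.05, 49.9 and 123 and the 3 ILCP libraries at 156, 299 and 326. Aldoa was thus above the highest CLP library in 4 of 7 CILP libraries and in 3 of 3 ILCP libraries, and its ILC2P median lay near that of CILP. It was not called in any wild-type comparison by edgeR. In ILC2P against CLP it was called higher by DESeq2 (1.85, adjusted p = 0.00798) and limma-voom (1.70, adjusted p = 0.0314), against the direction of most members. In CILP against α4β7+ CLP its log2 fold change was 2.17 ± 0.85 (adjusted p = 0.168, edgeR).

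The remaining genes of the upper part were not called between populations by edgeR. Gpi1 (glucose phosphate isomerase) had medians of 52.9 CPM in CLP, 109 in CILP and 13.3 in ILC2P. Of the 3 phosphofructokinase genes, whose enzyme commits sugar to glycolysis, Pfkl had its highest median in CILP (55.2 CPM), Pfkm had counts in 17 of 47 libraries, and Pfkp reached 470.3 CPM in 1 ILCP library with the uncertainty given above. Aldoc, the aldolase of brain, had 38 counts in CILP and 0 in all 8 ILC2P libraries. It was called higher in CILP than in CLP by limma-voom (1.90, adjusted p = 0.044), and by edgeR without technical repeats (4.73, adjusted p = 0.046) or with the outlier put back (5.19, adjusted p = 0.0181), which also called it lower in ILC2P than in CILP (-6.10, adjusted p = 0.0198).

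**Figure D4:**
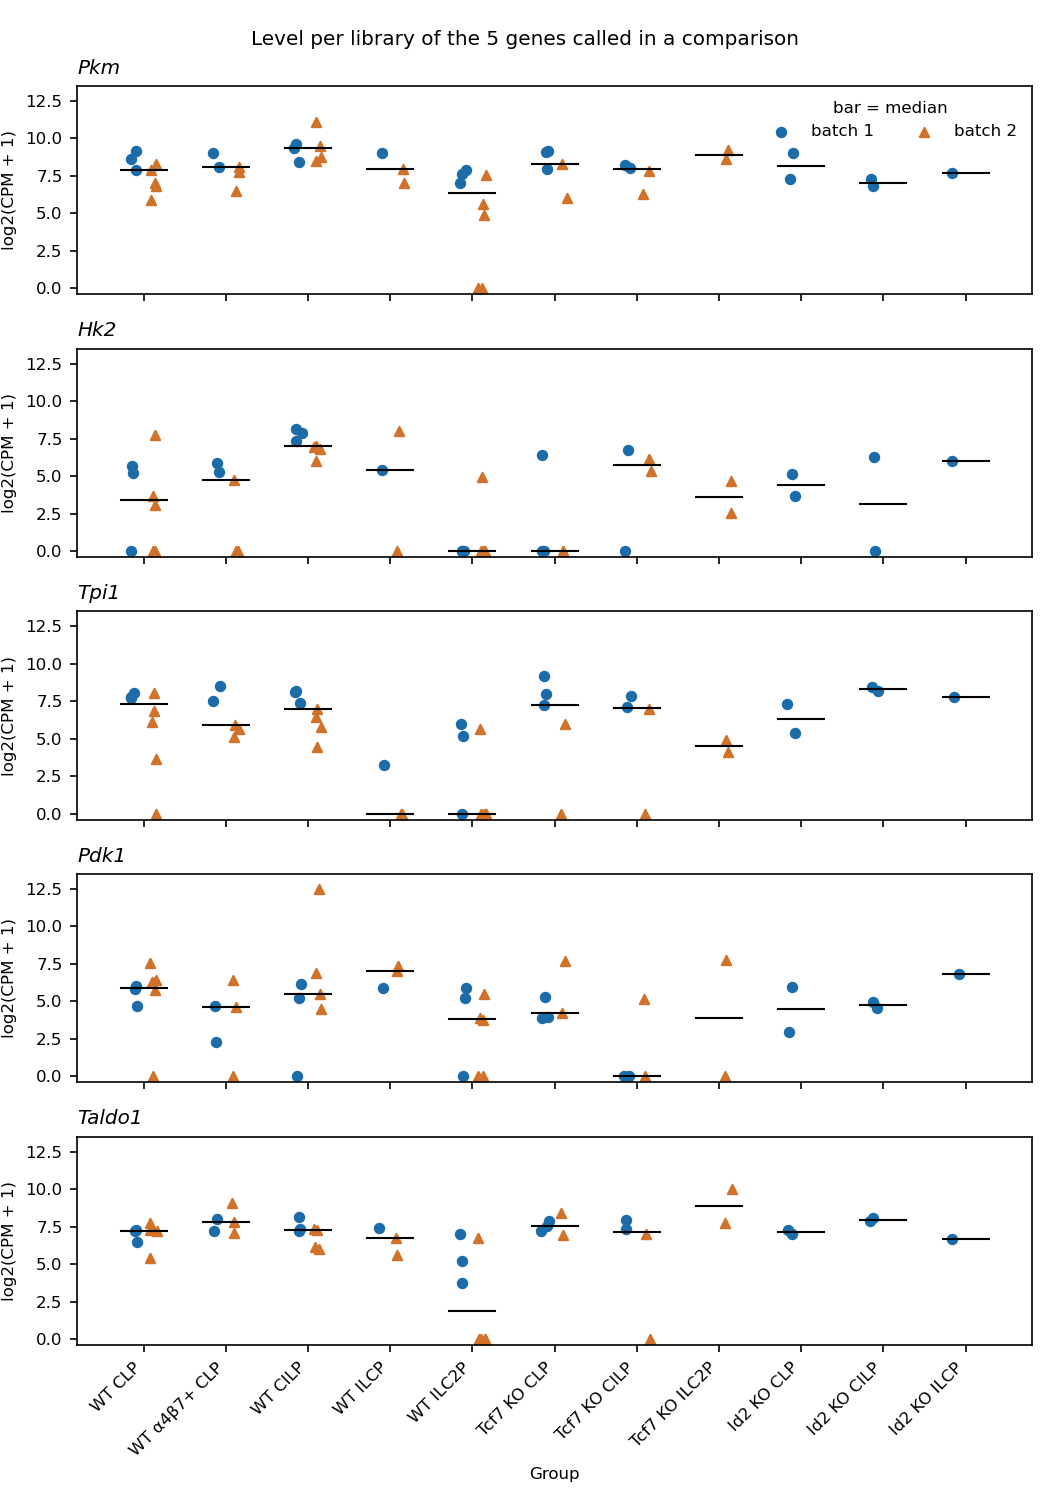
Levels of Pkm, Hk2, Tpi1, Pdk1 and Taldo1, the members called in at least 1 comparison between populations or genotypes, as log2(CPM + 1) in each library of the 11 groups, with bars at the medians. Pkm and Hk2 in wild-type ILC2P lie below all wild-type CILP libraries, and 1 CILP library stands far above the rest for Pdk1.

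Pkm, pyruvate kinase of muscle type, which makes pyruvate and ATP in the last step of glycolysis, had the highest mean of the members and was called in 3 comparisons. It stood at 57.9 to 561 (median 238) CPM in CLP, 344 to 2224 (median 649) in CILP and 0 to 233 (median 89.4) in ILC2P. Values in the 5 α4β7+ CLP libraries were 89.1, 217, 267, 277 and 523 and the 3 ILCP libraries at 133, 244 and 515. All 7 CILP libraries were above the CLP median and 4 of them above the highest CLP library, and all 8 ILC2P libraries were below the lowest CILP library. Pkm was lower in ILC2P than in CILP, with a log2 fold change of -3.13 ± 0.56 (adjusted p = 6.42e-05, edgeR), a pooled ratio of 5.88 with a 95% counting interval of 4.58 to 7.69. This call held in all 15 refits that left out 1 library and in 12 of 13 other settings, the exception being batch 1 alone (-1.70, adjusted p = 0.0916, edgeR).

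The rise of Pkm from CLP to CILP rested on fewer libraries. Its log2 fold change was 1.85 ± 0.52 with an adjusted p of 0.0209 (edgeR). Without CILP replicate 4, which had 2224 CPM, it was 1.15 with an adjusted p of 0.244, and without CLP replicate 5 it was 1.71 with an adjusted p of 0.0509. Within batches it was 0.56 in batch 1 (adjusted p = 0.797, edgeR) and 2.46 in batch 2 (adjusted p = 0.13), and without a batch term 1.63 (adjusted p = 0.083). In CILP against α4β7+ CLP it was 1.74 ± 0.61 (adjusted p = 0.11), in ILCP against CILP -1.62 ± 0.74 (adjusted p = 0.413), and in ILC2P against CLP -1.28 ± 0.52 (adjusted p = 0.0942). Cycling genes, a list of 20, made up 0.244 to 0.698% of counts in CLP, 0.0555 to 0.283% in CILP and 0.0132 to 0.158% in ILC2P, with medians of 0.486%, 0.142% and 0.0571%. Mature T cell markers made up 0.248 to 0.570% of counts in the 4 batch 2 CILP libraries, with the highest value in replicate 4, against 0.0229 to 0.0544% in the 3 of batch 1, at most 0.0250% in CLP and at most 0.122% in ILC2P. All 10 genes of that list had counts in CILP, and their part in the Pkm values was not tested. Counts per gene do not separate the M1 and M2 forms of the enzyme, which differ by an exon.

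The other genes of lower glycolysis were not called between populations by edgeR. Eno1 was at 6.08 to 33.1 (median 11.3) CPM in CLP and 20.4 to 157 (median 48.3) in CILP, with a log2 fold change of 2.13 ± 0.95 (adjusted p = 0.21, edgeR) and the uncertainty given above, while DESeq2 called it (2.17, adjusted p = 0.0488). Pgam1 (phosphoglycerate mutase) had its highest median in CILP, at 36.2 CPM, and Pgk1 (phosphoglycerate kinase) reached at most 99.5 CPM, in an ILC2P library. Eno3, the enolase of muscle, had counts in 22 of 47 libraries and Eno2, the enolase of neurons, had 4 counts in all.

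Ldha was detected in all 47 libraries and was not called between populations. It stood at 151 to 450.1 (median 280.1) CPM in CLP, 176 to 784 (median 238) in CILP and 34.1 to 624.96 (median 229) in ILC2P. Among α4β7+ CLP the 5 libraries were at 130.4, 204, 235, 319 and 350.5 and the 3 ILCP libraries at 193, 414 and 515. All of these ranges overlapped, and the log2 fold change in ILC2P against CILP was -0.47 ± 0.50 (adjusted p = 0.644, edgeR), beside -3.13 ± 0.56 for Pkm. Ldhb, the form of heart, had 7 counts in all, so nearly all lactate dehydrogenase counts were of Ldha.

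Pdk1, a kinase that switches off pyruvate dehydrogenase and a known HIF-1 target, was dominated by 1 library. Across wild-type CILP it stood at 0, 22.03, 36.2, 43.5, 69.1, 116 and 5808 CPM, the last of these in replicate 3 (741 of the 799 counts of the group). In CLP it ranged over 0 to 186 (median 60.004) and in ILC2P over 0 to 58.9 (median 13.3). The 5 α4β7+ CLP libraries stood at 0, 3.84, 24.3, 24.6 and 85.1 and the 3 ILCP libraries at 58.2, 133 and 166. Pdk1 was called lower in ILC2P than in CILP (-4.41 ± 1.19, adjusted p = 0.0235, edgeR), but without CILP replicate 3 the log2 fold change was -0.98 with an adjusted p of 0.661, and in batch 1 alone it was -0.20. The call was also lost without ILC2P replicate 2 (adjusted p = 0.0508, edgeR). In CILP against CLP the fitted value of 3.12 ± 1.05 (adjusted p = 0.0828, edgeR) turned to -0.40 without that library. Both values thus rest on CILP replicate 3.

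Pdha1, the catalytic subunit of pyruvate dehydrogenase, was spread widely and was not called. It stood at 43.5 to 182 (median 134) CPM in CLP, 27.2 to 399 (median 138) in CILP and 0 to 147 (median 41.5) in ILC2P. In α4β7+ CLP the 5 libraries stood at 77.1, 79.9, 97.2, 111 and 123 and the 3 ILCP libraries at 12.1, 174 and 273. Pdha1 shares 24.5% of its 3′ windows with Map3k15, its neighbour. Pdhb, the second subunit of that enzyme, reached at most 72.3 CPM in wild-type libraries, Pdk3 at most 313, and Pdk2 had 43 counts in 11 libraries.

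Hif1a encodes the oxygen-regulated subunit of HIF-1, whose activity is set mainly by protein stability. It stood at 37.9 to 188 (median 94.4) CPM in CLP, 47.02 to 290.0 (median 102) in CILP and 0 to 94.2 (median 18.4) in ILC2P, where 4 of 8 libraries were at 0. Values in the 5 α4β7+ CLP libraries were 34.6, 77.3, 86.1, 207 and 219 and the 3 ILCP libraries at 48.8, 166 and 422. The log2 fold change in ILC2P against CILP was -2.11 ± 0.84 with an unadjusted p of 0.0134 and an adjusted p of 0.113 in edgeR's test, and limma-voom called it (-2.43, adjusted p = 0.0104). Pfkfb3 and Pfkfb4 set the level of the sugar phosphate that activates phosphofructokinase. Pfkfb3 had medians of 20.5, 18.1 and 17.05 CPM in CLP, CILP and ILC2P, and Pfkfb4 was at 0 in 6 of 8 CLP and 6 of 8 ILC2P libraries with single values of 1077 and 278 CPM.

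Tkt, transketolase of the pentose phosphate pathway, was detected in all 47 libraries and was not called between wild-type populations. It stood at 74.5 to 628 (median 345) CPM in CLP, 95.2 to 573 (median 334) in CILP and 26.4 to 457 (median 126) in ILC2P. Among α4β7+ CLP the 5 libraries were at 94.8, 146, 247, 473 and 607 and the 3 ILCP libraries at 48.2, 78.01 and 191. The log2 fold change was -1.72 ± 0.70 in ILCP against CILP (adjusted p = 0.356, edgeR) and -0.85 ± 0.48 in ILC2P against CILP (adjusted p = 0.298).

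Taldo1, transaldolase, which returns pentose carbon to glycolysis, was low in ILC2P. It stood at 41.4 to 212 (median 148) CPM in CLP, 62.7 to 276 (median 155) in CILP and 0 to 129 (median 6.13) in ILC2P, where 4 of 8 libraries were at 0. The 5 α4β7+ CLP libraries stood at 134, 149.8, 225, 252 and 551 and the 3 ILCP libraries at 48.2, 107 and 166. It was lower in ILC2P than in CLP, with a log2 fold change of -2.07 ± 0.70 (adjusted p = 0.038, edgeR), and its difference from CILP was -2.08 ± 0.70 (adjusted p = 0.0598). Against CILP it was called by DESeq2 (adjusted p = 0.0392), limma-voom (0.00316), and edgeR with the outlier put back (0.0213), without libraries rich in markers of other cells (0.0398), and without ILC2P replicate 3 (0.0307) or 6 (0.0247). The call against CLP was lost in 8 of 16 refits that left out 1 library, with adjusted p up to 0.0737, and with DESeq2's size factors (adjusted p = 0.0793, edgeR).

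The first enzymes of the pentose phosphate pathway, G6pdx (glucose 6-phosphate dehydrogenase) and Pgd (phosphogluconate dehydrogenase), make NADPH. Pgd stood at 11.8 to 323 (median 58.5) CPM in CLP, 22.03 to 270.4 (median 141) in CILP and 0 to 518 (median 18.4) in ILC2P. In α4β7+ CLP the 5 libraries stood at 0, 5.93, 36.9, 64.4 and 142 and the 3 ILCP libraries at 0, 99.7 and 171. The ranges overlapped, and the ILC2P value of 518 came from 1 library while 4 of 8 were at 0. G6pdx was detected in 8 of 8 CLP libraries (8.27 to 75.4 CPM) and 3 of 8 ILC2P libraries, and was not called. All 4 pentose phosphate members had negative fitted changes in ILC2P against both CILP and CLP, with medians of -1.56 and -1.43. Most genes did so too, since only 33.5% and 37.7% of all genes were positive in these comparisons.

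In ILC2P, Taldo1 and Pkm were higher in the Tcf7 knockout than in wild type. These were 2 of 29 members called, where 2.57% of all genes were called. Of those 282 genes 279 were higher in the knockout, so the direction is that of nearly all calls, and with library totals 92 genes were called, 87 of them higher. Taldo1 stood at 216 and 1030.3 CPM in the 2 knockout libraries, both above the highest of the 8 wild-type libraries (129 CPM). Pkm stood at 391 and 604 CPM, both again above all wild-type ILC2P libraries (at most 233 CPM). The log2 fold changes were 4.41 ± 0.89 for Taldo1 (adjusted p = 0.000941, edgeR) and 2.72 ± 0.72 for Pkm (adjusted p = 0.018). The median over the members was 0.52 and over all genes 0.20, and with library totals in place of TMM these became -0.26 and -0.37.

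These calls rest on 2 libraries of 248697 and 252100 counts against shallower wild-type ones. In knockout replicate 1 plasma and mature B cell markers held 32.1% of counts and erythroid markers 1.41%, against at most 0.157% and 0.264% in wild-type ILC2P, and replicate 2 had 0.802% of counts in mature T cell markers against at most 0.122%. Without replicate 1 Taldo1 changed by 5.11 on the log2 scale (adjusted p = 0.000795, edgeR, with all libraries rich in such markers left out), and without replicate 2 by 2.92 (adjusted p = 0.235). Pkm lost its call without either library, with 2.99 and an adjusted p of 0.0761 without replicate 1, and 2.39 and 0.21 without replicate 2. Pkm also lost it with library totals (2.08, adjusted p = 0.167, edgeR), without a batch term (2.20, 0.137), in batch 2 alone (3.06, 0.114) and without shallow libraries (2.37, 0.0573). With only the 2 groups in the fit neither was called (adjusted p = 0.276 and 0.549). Hk2, Tpi1 and Pdk1 were not called in this comparison. Hk2 stood at 4.79 and 23.96 CPM in the knockout, Tpi1 at 15.98 and 28.8 and Pdk1 at 0 and 220.4.

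In CILP, no member was called by edgeR between Tcf7 knockout and wild type, where 0.501% of all genes were called. The members' median was -0.73 against -0.32 over all genes, 3 members had an unadjusted p under 0.05, and DESeq2 and limma-voom called 0. Pkm stood at 78.98, 228, 264 and 302 CPM in the 4 knockout libraries, all below the lowest wild-type CILP library (344 CPM). Its log2 fold change was -2.11 ± 0.68 with an adjusted p of 0.166 (edgeR). Pdk1 had counts in 1 of 4 knockout libraries (34.4 CPM), with a fitted change of -5.63 ± 1.64 (adjusted p = 0.129) that rests on the wild-type replicate named above. Hk2 stood at 0, 39.5, 68.9 and 105 CPM and Tpi1 at 0, 128, 139 and 229. In CLP no gene at all was called between the genotypes by edgeR (0% of 10972, with 712 at an unadjusted p under 0.05), while DESeq2 called 1 gene and limma-voom 9, none of them members. No member had an unadjusted p under 0.05 there, and Pkm ranged over 63.3 to 574 CPM in knockout CLP. The step from CLP to CILP did not differ between genotypes for any member by edgeR (0.0456% of all genes called), with 3 members at an unadjusted p under 0.05 and 0 called by DESeq2 or limma-voom. For Pkm the difference of steps was -2.37 ± 0.86 (adjusted p = 0.322).

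Between Id2 knockout and wild type, no member was called by edgeR in CLP (0.0365% of all genes called, 3 members at an unadjusted p under 0.05, DESeq2 0, limma-voom 1, which was Aldoc) or in CILP (0.0911% called, 2 members under 0.05, DESeq2 1, limma-voom 3, which were Pkm, Hk2 and Tkt). Aldoc was higher in knockout CLP (4.11, adjusted p = 0.00762, limma-voom). It stood at 61.2 and 66.7 CPM there, against at most 5.88 in wild-type CLP. Pkm stood at 111 and 157 CPM in the 2 knockout CILP libraries, both below all 7 wild-type CILP libraries, and at 156 and 514 in the 2 knockout CLP libraries, inside the wild-type range. In CILP its log2 fold change was -3.25 ± 1.00 with an unadjusted p of 0.00155 and an adjusted p of 0.233 in edgeR's test, while DESeq2 (-3.16, adjusted p = 0.00309) and limma-voom (-2.65, adjusted p = 0.00634) called it. ILC progenitor markers, a list that includes Id2 and Tcf7, made up 0.0464 to 0.0724% of counts in knockout CILP. In wild-type CILP they made up 0.369 to 0.726%. Whether the makeup of the pools has a part in the low Pkm values was not tested. The Id2 and Tcf7 comparisons in CILP share the 7 wild-type libraries, so the low Pkm values in both are not independent of each other. The step from CLP to CILP had no member called by edgeR (0.0365% of all genes called, 3 members at an unadjusted p under 0.05, DESeq2 0, limma-voom 1, again Aldoc). That difference of steps was negative for Aldoc (-5.89, adjusted p = 0.000746, limma-voom). For Pkm the difference of steps was -3.18 ± 1.16 (adjusted p = 0.849). The share of counts on all members was 0.420% and 0.449% in the 2 knockout CILP libraries. It was 0.350 to 0.385% in the wild-type CILP libraries of the same batch, and 0.220 to 0.762% over both batches, with no test.

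Tkt was high in the Id2 knockout libraries of each population. In CILP it stood at 1199.6 and 1542 CPM, above the highest of the 7 wild-type CILP libraries (573 CPM). Knockout CLP libraries had 667 and 902 CPM, above the highest wild-type CLP library (628 CPM), with no call. The knockout ILCP library had 799 CPM, against 48.2 to 191 in wild-type ILCP. For CILP the log2 fold change in the fit of all groups was 1.60 ± 0.70 with an adjusted p of 0.674 (edgeR). In batch 1 alone, which holds all Id2 knockout libraries, it was 2.18 and was called (adjusted p = 0.00805, edgeR), as it was with limma-voom (1.74, adjusted p = 0.00754). Hk1 stood at 312 and 416 CPM in the knockout CILP libraries against 18.1 to 131 in wild-type CILP, and was not called. Cycling genes made up 0.395 to 0.669% of counts in these libraries against 0.0555 to 0.283% in wild-type CILP, and mast cell and basophil markers 0.380 to 0.681% against 0.00473 to 0.514%. Of the 9 genes of the mast cell and basophil list 7 had counts in them, and the part of these cells in the Tkt values was not tested. The single Id2 knockout ILCP library, with no replicate, had Pkm at 211 CPM, Tkt at 799, Ldha at 193 and Tpi1 at 220.4.

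Members were called between batches at about the rate of all genes. Between batch 2 and batch 1, adjusted for group, 5 of 29 members were called, where 16.3% of all genes were called. Gpi1 (-2.17 ± 0.50, adjusted p = 0.000715, edgeR), Tpi1 (-1.89 ± 0.49), Slc16a3 (-2.87 ± 0.87) and Pkm (-0.94 ± 0.33, adjusted p = 0.0354) were lower in batch 2, and Pdhb was higher (2.19 ± 0.76). The 2 batches crossed most groups, and the term for batch was in every comparison between them.

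Lists of related genes held 103 genes in 8 groups, of which 79 were tested. Their calls stand beside 4.31% of all genes called in CILP against CLP, 5.29% in ILC2P against CILP and 11.5% in ILC2P against CLP. Among glycolytic isozymes outside the members (5 of 13 tested), Pgam2, the muscle phosphoglycerate mutase, was called higher in CILP than in CLP and lower in ILC2P than in CILP, at 0 to 279 CPM in CILP and 0 in all 8 ILC2P libraries. In the list on glucose uptake and other hexokinases (5 of 13 tested), 0 were called in CILP against CLP, Slc2a9 was lower in ILC2P than in CILP, and Hk3 was called higher in ILC2P than in CLP from 1 library with 753 CPM. In the list on pyruvate entry into mitochondria (8 of 10 tested), Pdp1, the phosphatase that reactivates pyruvate dehydrogenase, was called higher in CILP than in CLP, and in ILC2P against CILP or CLP none was called.

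Of the remaining pentose phosphate genes (8 of 9 tested), none was called in CILP against CLP or ILC2P against CILP. In ILC2P against CLP, Tktl1, a relative of transketolase, was higher, with 0 in all 8 CLP libraries and up to 531 CPM in ILC2P, where 7 of 8 libraries had counts, and Pgls and Prps2 were lower. Pgls was at 0 in all batch 1 libraries of every group, so its call rests on batch 2. In the serine and one-carbon branch (8 of 8 tested), Mthfd2 was lower in ILC2P than in CILP, and Mthfd2, Phgdh and Shmt1 were lower than in CLP. Phgdh was at 0 in all wild-type batch 1 libraries, so its call too rests on batch 2. Of the genes of gluconeogenesis and glycogen (11 of 14 tested), Pygl, the liver glycogen phosphorylase, was lower in CILP than in α4β7+ CLP, and no other was called between populations.

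Among hypoxia response genes outside glycolysis (15 of 16 tested), Egln1, a prolyl hydroxylase that marks HIF for destruction, was lower in CILP than in CLP, with a log2 fold change of -3.70 ± 0.82 (adjusted p = 0.00195, edgeR). It stood at 76.1 to 678 (median 207) CPM in CLP and 0 to 51.02 (median 3.67) in CILP, with no overlap. It was also called lower in CILP than in α4β7+ CLP. In ILC2P against CILP, Epas1 was higher and Egln3 lower, and in ILC2P against CLP, Epas1 was higher and Egln3, Ndrg1 and Vegfa lower. Epas1 had 21 counts in 3 of the 8 ILC2P libraries, with a median of 0 and a highest value of 234 CPM. In CLP and CILP it had 0 counts. Of the genes of MYC, PI3K and mTOR signalling (19 of 20 tested), Txnip, which restrains glucose uptake, was higher in ILC2P than in CILP by 2.16 ± 0.45 (adjusted p = 0.00101, edgeR), at 375 to 5703 (median 1324) CPM against 147 to 599.5 (median 400.2). The ranges overlapped. Txnip was also higher in ILC2P than in CLP, while Rheb and Rptor, of the mTOR pathway, were lower. None of the genes in these 8 lists was called by edgeR in the 7 knockout comparisons, in which 53 of 553 fitted changes had an unadjusted p under 0.05.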

How the data were processed

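Pools of 100 sorted mouse bone marrow cells were profiled by CEL-seq. The deposited tables, 1 for each batch, hold whole-number read counts for genes named by Entrez identifier, without normalization. Per the submitters' processing notes, CASAVA 1.8.2, featureCounts, edgeR (3.8.2 and 3.22.0) and limma were used, on build mm10. Which aligner was used is not stated. The treatment of reads that fit several genes is not stated, and molecular identifiers are not mentioned, so that intervals and limits cover counting error only. All value columns had a sample (0 without). Symbols and coordinates came from RefSeq GRCm38.p6, and shared 3′ windows from GENCODE release 21 transcripts.

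Groups came from the labels for genotype and population. Technical repeats were summed, and 12 control wells, 6 libraries labelled Nfil (a failed knockout, per the labels) and 1 CILP library labelled as an outlier were left out, leaving 47 libraries. Totals of 19322 to 624668 counts mean that 1 count is worth 51.8 CPM in the shallowest library and 1.6 CPM in the deepest. CPM were computed from the counts with TMM-scaled totals, and shares from plain totals. Comparisons used edgeR 4.0.16 in R 4.3.3 on all genes, with TMM and filterByExpr by group (minimum count set to 10 and minimum total to 15). The minimum count acts as a CPM cutoff set at the median library size, not as a count needed in each library. A robust quasi-likelihood fit of all groups had a batch term and 35 residual degrees of freedom. Genes were called at an adjusted p under 0.05 (Benjamini-Hochberg over 10972 genes). Groups of 1 or 2 libraries are assumed to vary like the others, and the biological coefficient of variation was 109.7%. The SE of a log2 fold change was taken from the F statistic. The fit was also run on simulated counts with 50 genes changed by each fold and direction, and 0 unchanged genes were called there. Whether this holds for the measured counts, with their batch differences and single high libraries, was not tested. In the simulated counts a 4-fold fall and rise were recovered in 0 and 2 genes in CILP against CLP. In ILC2P against CILP these were 2 and 1, and for the Tcf7 knockout in ILC2P 0 and 3. For a 16-fold fall and rise they were 14 and 34, 16 and 21, and 0 and 16. A member that was not called may therefore still differ between groups.

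Values per library are given for members called in at least 1 comparison and for the 10 with the highest wild-type mean, other members by range or median, and genes of related pathway lists only where called. The members and lists were chosen with earlier results of these data known. The comparisons were repeated with library totals or DESeq2's size factors in edgeR, with DESeq2 1.42.0 or weighted limma-voom (limma 3.58.1), without the filter, without the batch term, within each batch, on the compared groups alone, with the outlier, without repeats, without libraries below 20% of their batch median, and leaving out each library. Leaving out libraries with over 1% of erythroid, myeloid or plasma cell markers was added after seeing the data.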

Additional observations from a re-analysis of the deposited data

Results flagged for a closer look

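In groups of 4 to 10 libraries, a library far from the others was looked for in the members' share of counts, their summed CPM and the levels of the members given per library, 78 group values in all. The limit used would mark about 1 in 20 groups of normally distributed values, which these sparse counts are not. How many of the 16 marks chance would give is therefore not known. Where all other libraries of a group are at 0, a single library with counts is always marked. This was so for Hk2 in wild-type ILC2P and Tcf7 knockout CLP, and for Pdk1 in Tcf7 knockout CILP. Wild-type CILP replicate 3 stood apart in the members' share (0.762%), in their summed CPM (8928) and in Pdk1 (5808 CPM). Pkm was at 2224 CPM in wild-type CILP replicate 4, the library whose removal ended the call of Pkm in CILP against CLP. Pdk1 was also far from the rest at 185.5 CPM in wild-type CLP replicate 4, 85.1 in α4β7+ CLP replicate 2, 203 in Tcf7 knockout CLP replicate 2 and 34.4 in Tcf7 knockout CILP replicate 2. Hk2 was so at 209.7 CPM in wild-type CLP replicate 4, 29.2 in wild-type ILC2P replicate 5 and 83.9 in Tcf7 knockout CLP replicate 5. Single values of other members were Aldoa at 318 CPM in wild-type CILP replicate 6, Pdha1 at 399 in wild-type CILP replicate 7, Taldo1 at 551 in α4β7+ CLP replicate 3, Ldha at 510.2 in Tcf7 knockout CILP replicate 2, and Pgd at 518 in wild-type ILC2P replicate 6.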

How the results depend on the processing

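Counts of called members were compared with their values in the report. In CILP against CLP (1 called) 2 were called with DESeq2, without the low-count filter, with the outlier put back and without technical repeats, 3 with limma-voom, and 0 in batch 1 or batch 2 alone. In CILP against α4β7+ CLP (0 called) 2 were called with DESeq2 and limma-voom, and 1 with library totals, without the filter and with only the compared groups. In ILCP against CILP (0) DESeq2 and limma-voom each called 1. In ILC2P against CILP (4) 6 were called with limma-voom (Slc2a3 among them, higher) and with the outlier put back, 2 in batch 1 alone and without shallow libraries, and 1 in batch 2 alone and with only the compared groups. In ILC2P against CLP (2) 1 was called with DESeq2's size factors, library totals, no filter and no batch term, 5 with limma-voom, and 0 in batch 2 alone and with only the compared groups. For the Tcf7 knockout in ILC2P (2) 1 was called with library totals, without a batch term, in batch 2 alone, without shallow libraries and without libraries rich in markers of other cells, and 0 with only the compared groups. For the Tcf7 knockout in CILP and its CLP to CILP step (0) no filter gave 1. For the Id2 knockout limma-voom gave 1 in CLP, 3 in CILP and 1 for the step, and DESeq2 and batch 1 alone each gave 1 in CILP, against 0. Leaving out 1 library at a time gave 0 to 2 calls in CILP against CLP, 0 to 1 in CILP against α4β7+ CLP, 3 to 4 in ILC2P against CILP, 1 to 3 in ILC2P against CLP, 0 to 2 for the Tcf7 knockout in ILC2P, and 0 to 0 in the others. Fitted changes were followed only for members with a small unadjusted p in the main fit, among which a reversal is less likely. Of these, only Pdk1 in CILP against CLP reversed, to -0.42 in batch 1 alone and -0.40 without wild-type CILP replicate 3. With other single libraries left out it reached up to 3.41. Except where stated, the cause of such a change was not tested.

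The members' summed CPM was 2445 ± 225 in ILCP, 2115 ± 576 in α4β7+ CLP, 2418 ± 288 in Tcf7 knockout CILP and 4269 ± 96.9 in Id2 knockout CILP (mean ± SD). With DESeq2's size factors ILCP stood at 2148, Tcf7 knockout CILP at 2950.1 and Id2 knockout CILP at 4032, and in batch 1 alone ILCP stood at 2700.1 and α4β7+ CLP at 2728. Leaving out 1 library moved the mean within 2079 to 2359 in CLP, 1940.1 to 2259 in α4β7+ CLP, 3282 to 4323 in CILP, 2318 to 2532 in ILCP and 1301 to 1659 in ILC2P. In the knockouts it moved within 2266 to 2722 (Tcf7, CLP), 2287 to 2514 (Tcf7, CILP), 1941 to 3484 (Tcf7, ILC2P), 2299.6 to 3315 (Id2, CLP) and 4201 to 4338 (Id2, CILP). No paired analysis was possible because replicate numbers were given in accession order and only name libraries. Depth limits low values: in wild-type ILC2P 3 counts are worth 37.1 CPM in the deepest library and 155 in the shallowest.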

Other observations

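Outside the compared groups the members were also counted. The 12 control wells are labelled as negative controls containing only ERCC spike-in RNA. With 51 to 9439 counts each, they had 0 to 24 counts on members, and 7 wells had none. In the wells with member counts the share was 0.159% to 0.382%, inside the range of the compared libraries (0.0311% to 0.762%). The source of these counts was not tested, and low counts in the compared libraries were not corrected for it. Among the 6 libraries labelled Nfil, which the labels give as unused because the knockout did not succeed, the members' share was 0 of 296 counts in 1 CILP library, which allows up to 1.01%, and 0.139% to 0.303% in the others. The CILP library that the submitters call an outlier had a share of 0.244% (95% Clopper-Pearson interval 0.202 to 0.293%), inside the range of the other CILP libraries.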
